A study of Homo sapiens with 8 samples.

Results

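Interferon response genes, the antiviral and immune genes that cells switch on after sensing an interferon, were followed over 4 groups of arrays: Caco-2 and HUG1N cells, each as control and with a short hairpin RNA (shRNA) against GATA6. The set was a list of 45 gene symbols, looked up in the platform's probe table, of 11963 genes with a probe set in all. Of the 45, 44 had a probe set with a single symbol and 1 is not analysed here. The brightest probe set over the 8 arrays stood for each gene. In all, 36 of the 44 were over log2 4 in at least 2 arrays and were tested, beside 7696 genes tested in the whole series. No Caco-2 array was over log2 4 for 15 of the 44, and no HUG1N array for 8.

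The Caco-2 line comes from a colorectal adenocarcinoma and HUG1N, named HuG-1 in part of the labels, from a gastric cancer. GATA6 encodes a GATA-binding transcription factor of the developing gut, and the study asked about its functions in gastric cancer. Each group had 2 arrays, made from total RNA of cells grown in the media the supplier recommends. The protocol, worded alike for all 8 samples, states infection with a GATA6 shRNA and puromycin selection, and what was given to control cells is not stated. No hairpin sequence, time of harvest or interferon treatment is named. Whether the arrays of a pair hold separate cultures is not stated either, so a p-value reflects the spread within such pairs, which may be technical only.

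Type I interferons bind the IFNAR1 and IFNAR2 receptor chains, and the kinases JAK1 and TYK2 then activate STAT proteins, which with IRF9 form the complex ISGF3. ISGF3 binds the interferon-stimulated response element (ISRE), whose core is a repeated GAAA. Interferon gamma acts through IFNGR1, IFNGR2, JAK1 and JAK2 on the gamma-activated site (GAS), a palindrome of TTC and GAA, and induces IRF1 and guanylate-binding proteins. Some ISRE genes, the IFIT family among them, can also be induced by IRF3 without interferon. Epithelial cells of the gut answer type I, II and III interferons, and their induced proteins bind viral RNA, modify proteins with ISG15 or attract T cells.

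The bases just before the start of 6 genes with an ISRE core are shown, since these genes span the directions seen in the lines. The windows are the 160 bases before the start of transcription, 5′ to 3′ on the gene's strand, from RefSeq on GRCh38.p14, with capitals for each match to the ISRE core, GAAA, any 2 bases and GAAA, on either strand. IFIT1 and ISG15 rose in both lines, RSAD2 rose in HUG1N, HERC5 rose in Caco-2, and IFI27 and BST2 fell in HUG1N.

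IFIT1 (chr10:89392463-89392622, plus strand): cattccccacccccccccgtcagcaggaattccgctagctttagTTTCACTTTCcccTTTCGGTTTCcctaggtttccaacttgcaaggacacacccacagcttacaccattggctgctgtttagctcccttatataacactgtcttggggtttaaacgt

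ISG15 (chr1:1013337-1013496, plus strand): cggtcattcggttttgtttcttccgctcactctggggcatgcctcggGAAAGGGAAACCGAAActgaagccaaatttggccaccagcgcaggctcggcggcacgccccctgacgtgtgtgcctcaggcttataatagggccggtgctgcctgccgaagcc

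RSAD2 (chr2:6877617-6877776, plus strand): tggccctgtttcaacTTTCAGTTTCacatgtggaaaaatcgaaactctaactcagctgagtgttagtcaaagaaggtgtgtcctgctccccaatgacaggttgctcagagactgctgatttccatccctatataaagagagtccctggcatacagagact

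HERC5 (chr4:88456959-88457118, plus strand): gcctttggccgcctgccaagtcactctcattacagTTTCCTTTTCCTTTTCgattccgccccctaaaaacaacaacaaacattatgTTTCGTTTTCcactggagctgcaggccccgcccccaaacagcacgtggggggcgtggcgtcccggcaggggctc

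IFI27 (chr14:94110576-94110735, plus strand): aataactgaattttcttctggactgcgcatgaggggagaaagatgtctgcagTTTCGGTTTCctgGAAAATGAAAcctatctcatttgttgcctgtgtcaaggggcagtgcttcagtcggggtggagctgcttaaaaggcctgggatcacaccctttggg

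BST2 (chr19:17405631-17405790, minus strand): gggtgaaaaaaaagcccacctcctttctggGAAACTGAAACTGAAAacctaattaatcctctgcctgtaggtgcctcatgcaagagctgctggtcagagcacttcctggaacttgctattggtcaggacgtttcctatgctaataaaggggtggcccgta

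Counted from the start, with -1 for the base before it, the cores began at -116 and -103 in IFIT1, at -113 and -107 in ISG15, at -130 and -124 in BST2, at -108 and -95 in IFI27, and at -145 in RSAD2. HERC5 had 3, at -125, -119 and -74. In ISG15, BST2 and the upstream pair of HERC5, neighbouring matches overlapped and shared one GAAA. Over the 22 genes of the set with a core, matches began anywhere from -221 in CXCL10 and -196 in MX1 to -18 in IFI44 and -12 in OAS3.

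IRF9 and IRF1, which moved in opposite directions in the lines, had no match to the ISRE core in the window. They are shown with capitals for TTCNNNGAA, the letters of a GAS.

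IRF9 (chr14:24161105-24161264, plus strand): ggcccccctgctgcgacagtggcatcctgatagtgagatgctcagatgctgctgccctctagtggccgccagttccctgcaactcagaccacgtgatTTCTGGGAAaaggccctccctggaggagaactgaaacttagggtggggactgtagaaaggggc

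IRF1 (chr5:132490774-132490933, minus strand): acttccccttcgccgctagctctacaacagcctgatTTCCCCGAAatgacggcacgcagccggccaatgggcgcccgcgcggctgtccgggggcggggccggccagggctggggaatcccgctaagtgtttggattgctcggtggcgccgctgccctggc

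A promoter entry of 250 bases before the start was found for 35 of the 44 genes, with several starts for 11. The ISRE core was in a window of 22 of the 35 (62.9%), against 3.02% of all 35116 windows and 3.57% of 9563 genes that have a probe set. TTCNNNGAA, searched likewise, was in 11 of the 35 (31.4%), against 6.57% of all windows and 8.04% of the genes that have a probe set. GATAA, the core of a GATA site on either strand, was in 10 of the 35 (28.6%). That is against 20.4% of all windows and 20.5% of the genes that have a probe set. All 5 genes with a window that rose in HUG1N held the ISRE core and none held the GAS letters, while of 16 that fell 10 held the ISRE core and 7 the GAS letters. Of 11 that rose in Caco-2, 6 held the ISRE core and 4 the GAS letters. Any difference in these shares between rising and falling genes was not tested. These matches describe letters only, and a missing match draws nothing about a factor.

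Facts of the whole series bear on these values in a few places. GATA6 itself was 12.63 and 12.45 on the log2 scale in the Caco-2 control arrays and 12.23 and 12.02 in the shRNA arrays, a change of -0.42 (SE 0.10, limma adjusted p = 0.0224). In HUG1N it was 12.54 and 12.45 in control and 12.26 and 12.22 in shRNA arrays, a change of -0.25 (SE 0.10) that did not pass the test (limma adjusted p = 0.0879). Over genes, r was 0.995 to 0.997 within a group, 0.962 to 0.966 between a line's groups and 0.697 to 0.745 between lines. The gap between the 3′ and 5′ probe sets of ACTB was 1.92 ± 0.02 and 1.55 ± 0.13 log2 units in Caco-2 control and shRNA arrays, and 2.51 ± 0.23 and 3.73 ± 0.06 in the HUG1N groups (SD, n = 2 each). The spike-in control BioB was 4.86 ± 0.01 (SD, n = 2) in HUG1N shRNA arrays against group means of 9.61 to 10.14 elsewhere, while BioC, BioD and Cre were at 13.39 to 13.70 in all 4 groups. The wider ACTB gap and the low BioB move with the HUG1N shRNA group, and their part in the HUG1N results was not tested. Both lines held the epithelial markers, 8 of 8 over log2 4 in every group, with array means from 12.37 to 13.50. Of 14 leukocyte markers 1, CD14, was over 4, in Caco-2 control arrays only, and PTPRC, CD3D, CD3E, MS4A1 and SPI1 lay at the floor of 2.08 on every array. The means over those 14 ran from 2.11 to 2.31 on all arrays. Of 10 fibroblast markers at most 2 and of 5 endothelial markers at most 1 were over 4 in any group. Among them LUM, a collagen-binding proteoglycan, rose at least 11.6-fold in Caco-2 with the shRNA, while COL1A2, COL3A1 and DCN were at 2.14 or less on every array. LUM was over 4 on the Caco-2 shRNA arrays only and passed the filter through them.

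The control cells of the lines differed first of all in how much of this program they already expressed. Of the 36 genes tested, 30 were higher in HUG1N control than in Caco-2 control arrays, 3 were lower and 3 did not pass the test, and 28 of the 30 differed by at least 1 log2 unit. Over all 7696 genes 78.4% were called, 37.1% higher and 41.3% lower, and by at least 1 log2 unit 22.1% and 23.9%. Control arrays of the lines did not overlap for 43% of all genes on the higher side and 47.7% on the lower side. The median difference was 3.34 log2 units over the 36 genes and -0.05 over all genes. Some of the 36 passed the filter only through the HUG1N arrays in which they are high and so had to differ. Over the 26 with an array over 4 in both control groups, 22 were higher, 2 lower and 2 not called, with a median of 2.41, against 36.5% higher and 40.4% lower of 6730 such genes in all. With every value below 4 set to 4, the median over the 36 was 2.77. IFITM3, which blocks virus entry at the endosome, had log2 values of 6.04 and 6.04 in Caco-2 and 11.55 and 11.56 in HUG1N control arrays, 45.6-fold higher. Its Caco-2 value was identical on both control arrays and on shRNA 2. Whether that value measures expression is uncertain, and the fold with it. IFI6, a small membrane protein, was at 5.49 and 5.20 against 10.49 and 10.46, and ISG15, the ubiquitin-like modifier, at 8.22 and 8.61 against 12.03 and 11.87. In all 3 genes both HUG1N arrays were the higher ones.

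Several genes were below log2 4 in Caco-2 control and bright in HUG1N control, so their difference is a bound against 4. By that measure DDX60, a helicase that aids RNA sensing, was at least 74.1-fold higher in HUG1N. IFIT1, which binds foreign RNA caps, was at least 37.9-fold higher, and GBP1, an interferon-induced GTPase, at least 19.4-fold. SP110, a nuclear body protein, was at least 16.4-fold higher, the GTPase MX1 at least 15.9-fold, the membrane protein IFI27 at least 7.95-fold and IFI44 at least 3.12-fold. With a Caco-2 control array over 4, GBP2 differed by 6.47 log2 units, OASL by 5.50 and HERC5 by 4.86. These are less certain, since GBP2 (3.94 and 4.21) and OASL (4.45 and 3.06) each had a Caco-2 control array below 4. HERC5 lay near the cut there, at 4.28 and 4.21.

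Other members had a control array over log2 4 in both lines and were still higher in HUG1N. Some lay near that cut in Caco-2 control, among them IRF9 at 4.04 and 3.98, IFIT3 at 4.14 and 4.18 and IFITM2 at 4.68 and 4.13. Their differences are less certain for that. The transcription factors IRF9, IRF1 and IRF7 were higher by 3.83, 2.26 and 1.24 log2 units. IFIT5, IFIT2 and IFIT3 were higher by 3.63, 3.27 and 1.87, and the entry blockers IFITM2 and IFITM1 by 3.57 and 3.55. SP100 was higher by 3.41, PLSCR1, a phospholipid scramblase with antiviral activity, by 2.55, and LGALS3BP, a secreted glycoprotein, by 2.28. OAS3 and OAS1, which make the activator of RNase L, were higher by 2.15 and 2.01, IFI35, an interferon-induced leucine zipper protein, by 1.33 and EIF2AK2 by 0.36.

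The genes that went the other way were few. CXCL10, a T-cell chemokine, was 4.17-fold lower in HUG1N control, at 6.36 and 6.85 against 8.63 and 8.71 on the log2 scale. TRIM14, a mitochondrial adaptor of antiviral signalling, was 3.97-fold lower, and TRIM21, an antibody receptor of the cytosol, had no HUG1N array over 4. For TRIM21 the call was lost with values floored at 4 (limma adjusted p = 0.944). IFIH1, the RNA sensor also called MDA5, and the RNA-editing enzyme ADAR differed by 0.01 and -0.00 and were bright in both lines. RSAD2, also called viperin, lay below 4 in the control arrays of both lines. BST2 was 0.62 log2 units higher in HUG1N, a call lost without Caco-2 control 1 (adjusted p = 0.0958) or HUG1N control 2 (0.0825). CXCL11, a chemokine for the same receptor as CXCL10, was at 2.96 and 2.51 in Caco-2 control and at 5.59 and 3.95 in HUG1N control arrays. With values floored at 4 its difference was 0.80 (adjusted p = 0.158), and its call was also lost without Caco-2 control 2 (0.0528).

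**Figure D1:**
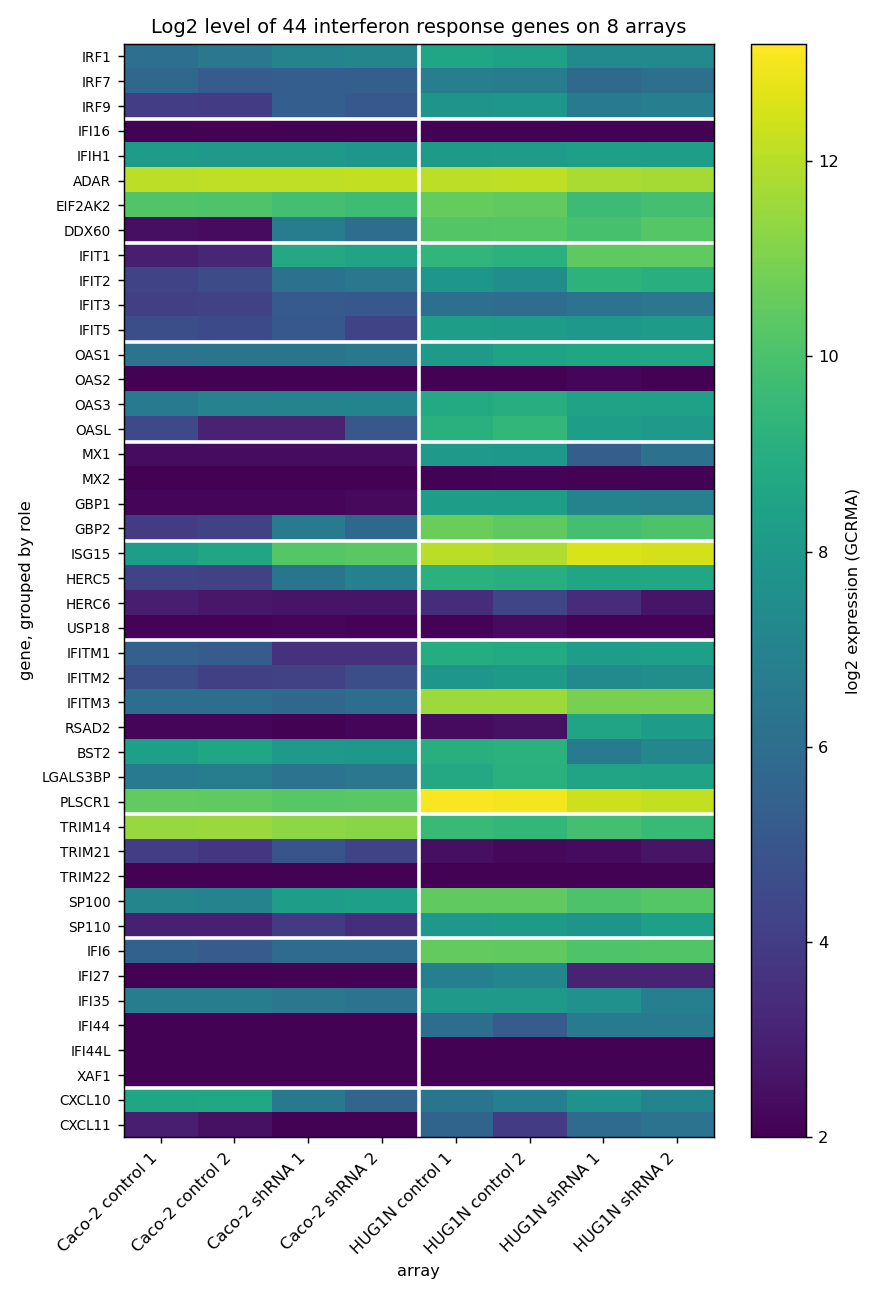
Log2 expression of the 44 genes with a probe set (rows, ordered by role) on each of the 8 arrays (columns), with colour for the level. HUG1N columns are brighter for most rows, as for DDX60 at 2.47 and 2.33 in Caco-2 control and 10.20 and 10.23 in HUG1N control arrays.

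Of the 8 genes that were not tested, IFI16, IFI44L, MX2, OAS2, TRIM22, USP18 and XAF1 were below 4 on every array. HERC6, a relative of HERC5, was over 4 on HUG1N control 2 alone, at 4.36. IFI16, IFI44L, TRIM22 and XAF1 stayed at the floor of 2.08 in all 4 groups. In HUG1N control arrays MX1 and OAS1 were thus bright while MX2 and OAS2 were not over 4.

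In Caco-2 the shRNA cells showed higher levels of a subset of the program. Of 36 genes tested, 13 rose, 3 fell and 20 did not pass the test, against 38.7% of all genes called, 19.5% higher and 19.2% lower. With at least 1 log2 unit, 8 rose and 2 fell, against 5.3% and 4.34%. The median change was 0.06 over the 36 genes and -0.003 over all genes, so the rises were not shared by the whole set. Arrays of shRNA and control did not overlap for 36% of all genes on the higher side and 37.5% on the lower side, so that missing overlap alone says little with 2 arrays a group.

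The largest rise was that of IFIT1, of the IFIT family that binds foreign RNA, and 3 of the 4 members of that family rose. IFIT1 was at 2.94 and 3.20 in Caco-2 control arrays and at 8.74 and 8.53 in shRNA arrays, at least 24.8-fold higher. IFIT2 was at 4.28 and 4.62 against 6.24 and 6.43, a rise of 1.89 (SE 0.17, limma adjusted p = 5.36e-04). IFIT3 was at 4.14 and 4.18 against 5.18 and 5.08, a rise of 0.97 (SE 0.09, adjusted p = 5.28e-04). In each of these 3 genes both shRNA arrays lay above both control arrays, whereas IFIT5 overlapped, at 4.69 and 4.53 against 5.09 and 4.31 (0.09, adjusted p = 0.816).

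The ISG15 system, a ubiquitin-like tag and the ligase that attaches it, rose with it. ISG15 was at 8.22 and 8.61 in Caco-2 control and 10.26 and 10.35 in shRNA arrays, 3.71-fold higher (1.89 log2 units, SE 0.14, limma adjusted p = 1.98e-04). HERC5, the main ISG15 ligase, was at 4.28 and 4.21 against 6.35 and 6.90, 5.20-fold higher (adjusted p = 2.31e-04). USP18, which removes ISG15, was below 4 throughout.

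DDX60 was at 2.47 and 2.33 in control and 6.74 and 5.99 in shRNA arrays of Caco-2, at least 5.16-fold higher. GBP2, a GTPase that acts on pathogen vacuoles, was at 3.94 and 4.21 against 6.59 and 5.78, a rise of 2.11 (SE 0.27, limma adjusted p = 0.00181). SP100, a nuclear body protein that represses viral DNA, was at 7.09 and 6.99 against 8.29 and 8.33, a rise of 1.27 (SE 0.09, adjusted p = 1.68e-04). For these genes, too, the shRNA arrays were the high ones with no overlap. A second probe set of SP100 rose likewise, by 1.34.

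Of the transcription factors, IRF9, the DNA-binding subunit of ISGF3, was at 4.04 and 3.98 in control and 5.36 and 5.10 in shRNA arrays of Caco-2, a rise of 1.22 (SE 0.12, limma adjusted p = 7.44e-04). IRF1 was at 6.09 and 6.45 against 6.99 and 7.10, a rise of 0.78 (SE 0.14, adjusted p = 0.00623). IRF7, which amplifies interferon production, was at 5.80 and 5.25 against 5.34 and 5.37 and overlapped. IFI6 rose by 0.57 (adjusted p = 0.00668). The smaller rises of TRIM21 (0.69) and SP110 (0.70) had adjusted p of 0.0494 and 0.0381. SP110 had no Caco-2 array over 4, both of its other tested probe sets changed by 0.01, and its call was lost under 11 of 17 alternatives. The call of TRIM21 was lost under 12 of 16 alternatives, with no filter (0.148) and with Caco-2 fitted alone (0.122) among them.

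The falls in Caco-2 were of other kinds. CXCL10 was at 8.63 and 8.71 in control and 6.52 and 5.67 in shRNA arrays, 5.95-fold lower (-2.57 log2 units, SE 0.35, limma adjusted p = 0.00229). IFITM1, which blocks virus entry at the cell surface, was at 5.42 and 5.24 against 3.61 and 3.61, at least 2.52-fold lower. Neither gene's groups overlapped. EIF2AK2, the kinase PKR that stops translation on double-stranded RNA, changed by -0.37 (adjusted p = 0.0187), a call lost without control 1 (0.0901), control 2 (0.0665) or shRNA 2 (0.0851). CXCL11 was below 4 on all Caco-2 arrays in both of its probe sets. The brighter changed by -0.66 (adjusted p = 0.347), and the other was called lower, from 3.82 and 3.81 to 2.10 and 2.08 (adjusted p = 3.19e-04), between values that are all below 4. The mean of the 2 was called too (-1.19, adjusted p = 0.0204).

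The remaining Caco-2 values were small or at the floor. OAS1, OAS3 and OASL changed by 0.13, 0.29 and 0.30, with OASL spread from 3.06 to 5.06 over 4 arrays. BST2, which tethers budding virus, was at 8.33 and 8.60 in control and 8.03 and 7.96 in shRNA arrays and changed by -0.47 (adjusted p = 0.0829), LGALS3BP by -0.32 and TRIM14 by -0.25. A second probe set of TRIM14 changed by -0.46 (adjusted p = 0.0360). IFI35 changed by -0.35 and PLSCR1 by -0.18. IFITM3 and IFIH1 changed by -0.13 and -0.12, IFITM2 by 0.04 and ADAR by 0.03. IFI27, IFI44, MX1, GBP1 and RSAD2 lay between 2.08 and 2.35 on all 4 Caco-2 arrays. Fitted without the HUG1N arrays, 11 genes rose and 6 fell in Caco-2.

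**Figure D2:**
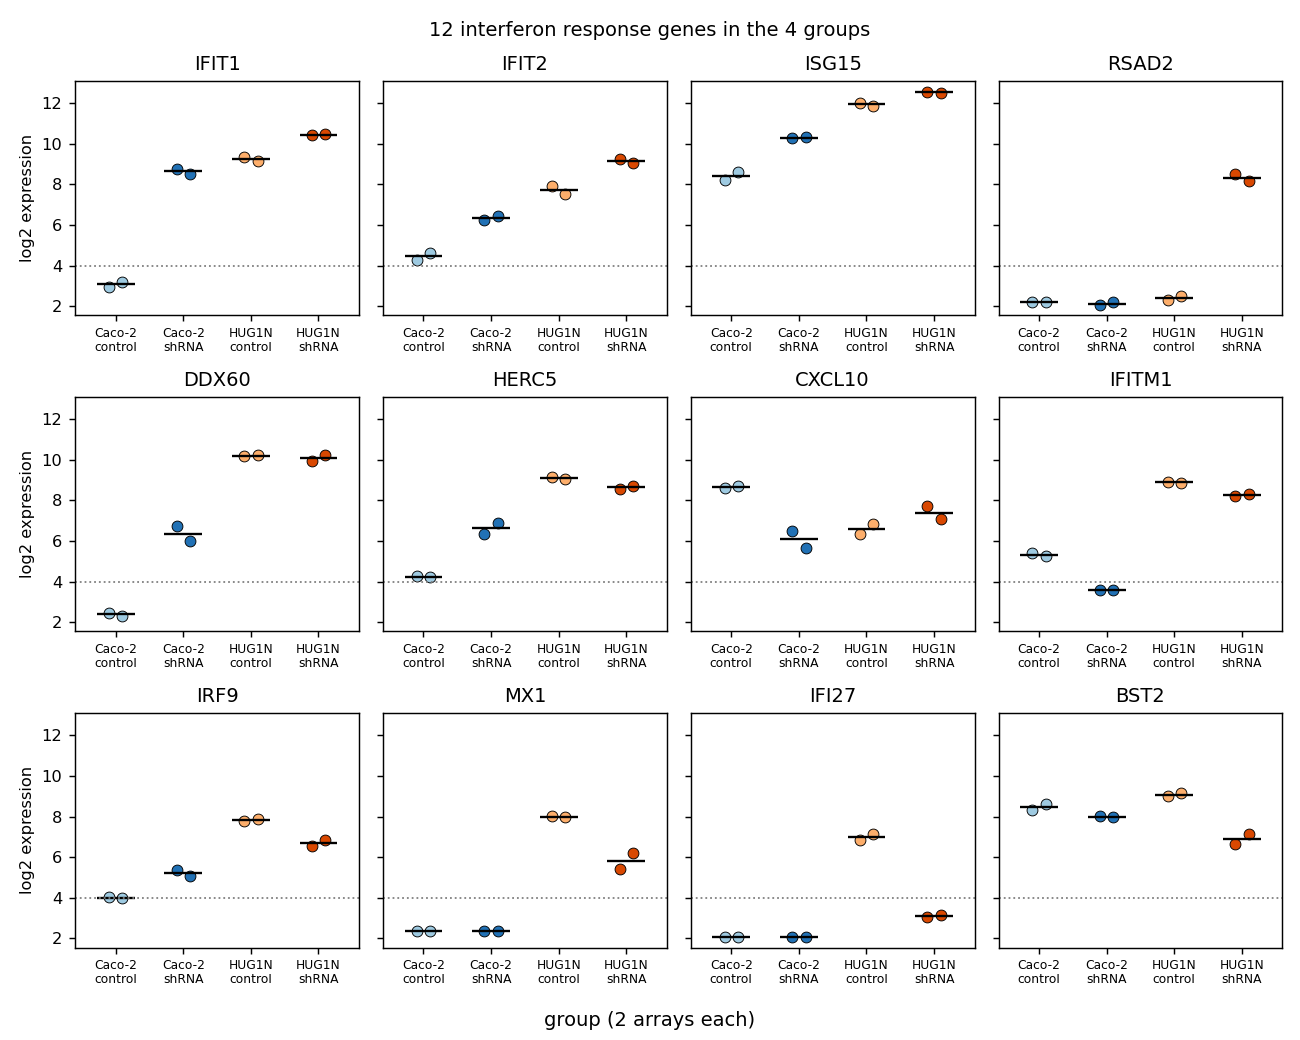
Log2 expression of single genes on each array (points), by group, with a bar for the group mean and a dotted line at log2 4. IFIT1 and DDX60 rise from below 4 in Caco-2 control arrays, while IFI27 and BST2 fall and RSAD2 rises in HUG1N.

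In HUG1N the shRNA cells showed lower levels of much of the program, with a few genes higher. Of 36 genes tested, 6 rose, 17 fell and 13 did not pass the test, against 48.7% of all genes called, 24.7% higher and 23.9% lower. Among these genes, RSAD2 was over 4 only on the HUG1N shRNA arrays and IFI27 only on the HUG1N control arrays. Both passed the filter through the group in which they are high, so the direction of their change was fixed by it. With at least 1 log2 unit, 3 rose and 6 fell, against 5.2% and 6.54%. The median change was -0.40 over the 36 genes and 0.00 over all genes. Groups did not overlap for 37.4% of all genes on the higher side and 37.3% on the lower side. The count of falls was 11 without HUG1N control 2 and 11 with no filter on low values. Leaving out both shRNA arrays, which share the low BioB value, leaves no comparison.

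RSAD2, which makes a chain-terminating nucleotide against viral polymerases, was at 2.33 and 2.51 in HUG1N control and 8.52 and 8.15 in shRNA arrays, at least 20.2-fold higher. In Caco-2 it stayed at 2.08 to 2.19. IFIT1 was at 9.35 and 9.14 in HUG1N control and 10.41 and 10.48 in shRNA arrays, a rise of 1.20 (SE 0.13, limma adjusted p = 7.67e-04). IFIT2 was at 7.90 and 7.54 against 9.25 and 9.04, a rise of 1.42 (SE 0.17, adjusted p = 0.00120). The shRNA arrays were the higher ones in all 3 genes. Smaller rises were those of IFI44 (0.97), ISG15 (0.58) and IFIT3 (0.33). ISG15 was at 12.03 and 11.87 against 12.56 and 12.50, and its call was lost without control 2 (0.0712) or shRNA 1 (0.0627). IFIT3, at 6.08 and 5.98 against 6.27 and 6.45, was lost without control 2 (0.0966) or shRNA 2 (0.0868). IFI44, at 6.05 and 5.23 against 6.65 and 6.58, was lost without shRNA 1 (0.0756) or shRNA 2 (0.0621).

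The deepest fall was that of IFI27, at 6.83 and 7.15 in HUG1N control and 3.07 and 3.13 in shRNA arrays, at least 7.95-fold lower. MX1 was at 8.03 and 7.96 against 5.41 and 6.21, 4.56-fold lower (limma adjusted p = 7.70e-04). BST2 was at 9.02 and 9.15 against 6.66 and 7.17, 4.52-fold lower (adjusted p = 3.17e-04). GBP1 was 2.52-fold lower, at 8.30 and 8.25 against 7.00 and 6.89, and its second probe set changed by -1.41. None of these 4 genes had overlapping groups. For IFI27, MX1, GBP1, RSAD2 and IFI44 the Caco-2 arrays lie at the floor and hardly vary, which lowers the shared estimate of the spread. Fitted on HUG1N alone, the first 4 kept their calls (adjusted p from 0.00735 to 0.0208) and IFI44 lost its own (0.100).

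The transcription factors fell together in HUG1N. IRF1 was at 8.64 and 8.42 in control and 7.31 and 7.29 in shRNA arrays, a change of -1.23 (SE 0.14, limma adjusted p = 8.34e-04). IRF9 was at 7.79 and 7.88 against 6.57 and 6.83, a change of -1.13 (SE 0.12, adjusted p = 7.95e-04). IRF7 was at 6.77 and 6.76 against 5.88 and 6.11, a change of -0.77 (adjusted p = 0.0139) that was lost without control 1 (0.0615), control 2 (0.0576) or shRNA 1 (0.0734). All 3 had lower values in both shRNA arrays. IFITM3 and IFITM1, the entry blockers, changed by -0.65 and -0.61 (adjusted p = 0.00231 for each). IFITM1 was at 8.93 and 8.85 against 8.21 and 8.34, and no groups overlapped. PLSCR1 changed by -0.79 in its brightest probe set and by -0.86 in the other. EIF2AK2 changed by -0.76 (adjusted p = 9.70e-04), but its second probe set, a cross-hybridising design by its name, changed by -0.01 (adjusted p = 0.965), so the fall is uncertain as to the gene. ADAR changed by -0.37 (adjusted p = 0.00633).

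Other falls in HUG1N rested on less. IFI35 (-0.79) had shRNA arrays at 7.68 and 6.83 and lost its call without either control array (0.138 and 0.130) and in HUG1N alone (0.158). OAS3 (-0.47), LGALS3BP (-0.44), IFI6 (-0.35) and SP100 (-0.30) lost theirs without most single HUG1N arrays, at adjusted p of up to 0.118, 0.108, 0.111 and 0.107. SP100 was at 10.45 and 10.45 in control and 10.05 and 10.25 in shRNA arrays. It also had a probe set of low level that rose by 1.90 (limma adjusted p = 0.00191), from 3.86 and 3.80 to 6.08 and 5.39, while another changed by -0.36. The direction for SP100 in HUG1N therefore depended on the probe set.

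Among genes that did not pass the test in HUG1N were several that had risen in Caco-2. HERC5 was at 9.17 and 9.04 in control and 8.58 and 8.71 in shRNA arrays (-0.46, limma adjusted p = 0.0757). GBP2 was at 10.66 and 10.42 against 9.84 and 10.05 (-0.59, adjusted p = 0.113). Fitted on HUG1N alone, HERC5 and GBP2 were called lower (limma adjusted p = 0.0349 and 0.0474). DDX60 was at 10.20 and 10.23 against 9.94 and 10.25 (-0.12, adjusted p = 0.732), with overlapping groups. CXCL10 was at 6.36 and 6.85 against 7.74 and 7.07 (0.80, adjusted p = 0.101) and CXCL11 at 5.59 and 3.95 against 5.94 and 6.29 (1.34, adjusted p = 0.0669). Without HUG1N control 1, CXCL11 passed at 2.16 (0.00350), and its second probe set changed by 0.76 (0.00547). OASL changed by -1.14 (adjusted p = 0.231), and by -0.44 (0.00882) in its second probe set. OAS1, IFIH1 and TRIM14 changed by 0.37, 0.14 and 0.20, SP110 by 0.04, IFIT5 by -0.19, IFITM2 by -0.56 and TRIM21, below 4 here, by 0.10.

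Set side by side, the lines moved the same way for some genes and apart for others. Of 16 genes called in Caco-2 and 23 in HUG1N, 10 were called in both. That is 62.5% of the former and 43.5% of the latter, against 52.9% and 42.1% over all genes. The HUG1N share was thus near that of all genes. Of the 10, 6 went the same way, ISG15, IFIT1, IFIT2 and IFIT3 up and IFITM1 and EIF2AK2 down. For EIF2AK2 in HUG1N this held by its brightest probe set only. IFI6, IRF1, IRF9 and SP100 rose in Caco-2 and fell in HUG1N, and no gene did the reverse. For SP100 the direction in HUG1N depended on the probe set, and the HUG1N call of IFI6 was lost with no filter (limma adjusted p = 0.0673). The share that went the same way was thus 60%, against 64.3% of the 1576 genes called in both lines over the whole series. Among those 1576, 297 rose in Caco-2 and fell in HUG1N, and 265 did the reverse.

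The test of the difference itself, the change in HUG1N minus that in Caco-2, called 22 of the 36 genes, 19 lower and 3 higher, against 44.9% of all genes, 22.7% lower and 22.2% higher. By at least 1 log2 unit 12 were lower and 3 higher, against 10% and 8.23%. The median difference was -0.61 over the 36 genes and 0.002 over all genes. In 28 of the 36 some array was over 4 in each line, and of these 16 were lower, 2 higher and 10 not called. Among these 28, IFIT1 had the largest difference, -4.37 (SE 0.18, limma adjusted p = 3.85e-05). Its rise in Caco-2 began below 4 and its rise in HUG1N began at 9.35 and 9.14. DDX60, whose Caco-2 control arrays also lay below 4, gave -4.08. With values below 4 set to 4, IFIT1 stayed first of the 28 at -3.43 and stayed called. HERC5 then gave -2.84, GBP2 -2.68, DDX60 -2.48, IRF9 -2.34 and IRF1 -2.01, and each stayed called. CXCL10 (3.37, SE 0.49, adjusted p = 0.00289) and IFITM1 (1.12, SE 0.13, adjusted p = 0.00122) were the 2 higher. IFITM1 gave 0.72 (adjusted p = 0.00444) with values below 4 set to 4. IFIT2 did not pass (-0.46, SE 0.25, adjusted p = 0.172). Of the 8 genes without an array over 4 in a line, 4 were called, IFI27, MX1 and GBP1 lower and RSAD2 higher. RSAD2 gave 5.97, larger in size than IFIT1, or 4.34 with values below 4 set to 4. IFI27 gave -3.89, or -2.99 with that floor. RSAD2 and IFI27 passed the filter only through the HUG1N group in which they are high, so their calls follow in part from the filter.

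**Figure D3:**
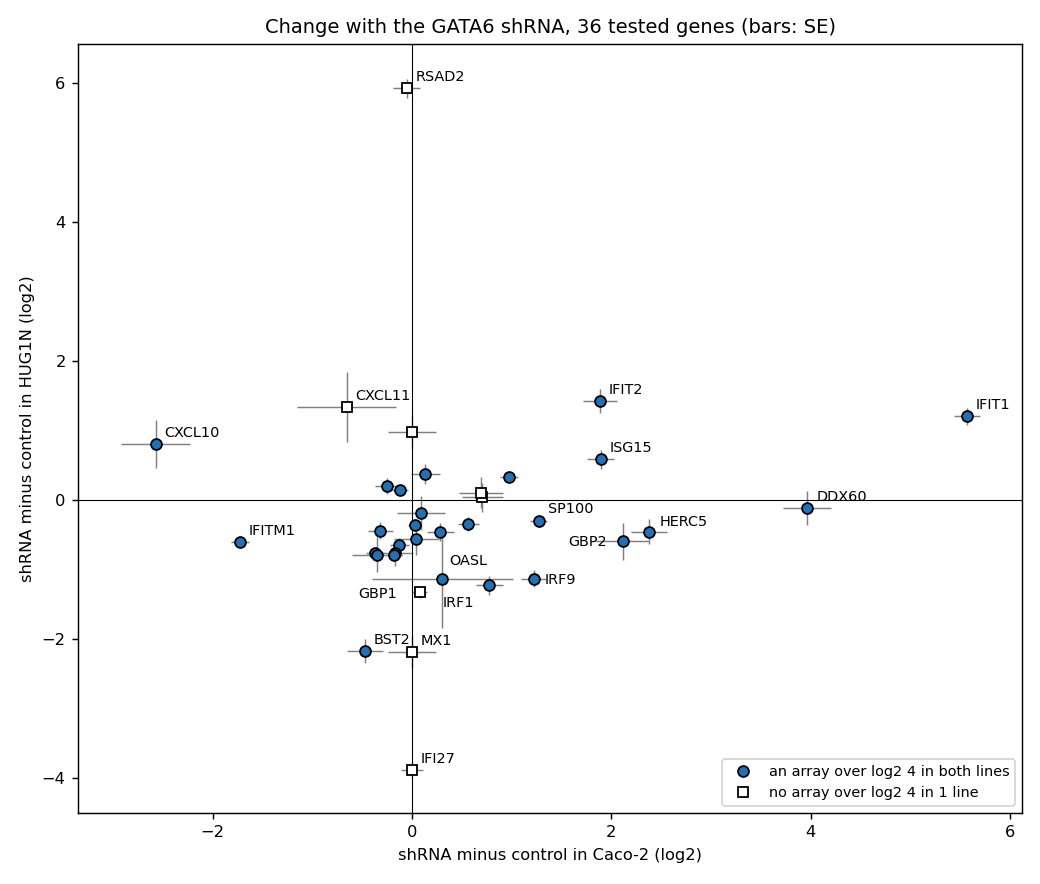
Change with the shRNA in Caco-2 (horizontal) against HUG1N (vertical), log2, for the 36 tested genes, with bars for the SE. Open squares have no array over log2 4 in 1 line. IFIT1, IFIT2 and ISG15 lie at upper right, and IRF1 and IRF9 at lower right.

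For the genes of the set called higher in Caco-2 with the shRNA, apart from TRIM21, the Caco-2 shRNA level stayed below the HUG1N control level. IFIT1 reached 8.74 and 8.53 in Caco-2 shRNA arrays against 9.35 and 9.14 in HUG1N control, and SP100 8.29 and 8.33 against 10.45 and 10.45. TRIM21, higher in Caco-2 from the start, was the exception.

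The genes that make or sense interferon were read from lists chosen with earlier results of these data known. Of 10 interferon ligand genes, 5 had a probe set, IFNB1, IFNA1, IFNA2, IFNW1 and IFNG, and none was above 2.09 on any array. Of 9 receptor and JAK-STAT genes tested, 3 rose (33.3%) and 1 fell (11.1%) in Caco-2, against 19.5% and 19.2% of all genes. In HUG1N 2 rose (22.2%) and 6 fell (66.7%), against 24.7% and 23.9%. IFNAR2, a chain of the type I receptor, was at 8.53 and 8.57 in Caco-2 control and 9.21 and 9.24 in shRNA arrays (0.67, limma adjusted p = 7.02e-04). In HUG1N it was at 10.75 and 10.66 against 9.31 and 9.36 (-1.37, adjusted p = 6.58e-05), a difference between lines of -2.04. IFNAR1, the other chain of this receptor, named after its values were seen, went the other way in HUG1N, at 2.20 and 3.04 in control and 4.11 and 4.21 in shRNA arrays, at least 1.12-fold higher (adjusted p = 0.00343). IFNAR1 was below 4 on all Caco-2 arrays. It passed the filter only through the HUG1N shRNA arrays, and JAK2 only through the HUG1N control arrays, so the filter fixed their directions in HUG1N. IFNGR1, the ligand-binding chain of the interferon gamma receptor, rose in both lines, by 0.30 and 0.67. IFNGR2 changed by -1.22 in HUG1N, the changes of JAK1 and IL10RB in HUG1N minus those in Caco-2 were -0.66 and -1.13, and JAK2 fell at least 1.64-fold in HUG1N. STAT3 rose by 0.67 and TYK2 changed by -0.55 in Caco-2. In HUG1N, too, TYK2 was lower with the shRNA, at 8.43 and 8.45 in control against 8.01 and 7.85 in shRNA arrays.

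Among 11 sensing and induction genes tested, 4 rose (36.4%) and 2 fell (18.2%) in Caco-2, against 19.5% and 19.2% of all genes. In HUG1N 3 rose (27.3%) and 4 fell (36.4%), against 24.7% and 23.9%, so that the share of rises there was near that of all genes. RIGI, the sensor of uncapped viral RNA, was at 2.95 and 3.21 in Caco-2 control and 5.86 and 5.73 in shRNA arrays, at least 3.47-fold higher. In HUG1N it was at 7.47 and 6.72 against 8.83 and 8.30 (1.47, limma adjusted p = 0.00663). MAVS, the mitochondrial adaptor of RIGI, rose by 0.61 and 0.88. IRF8, an interferon regulatory factor best known from myeloid cells, changed by -1.25 in Caco-2 and -2.15 in HUG1N, and TRAF3, a ligase of the MAVS pathway, by -1.06 in Caco-2. IRF3, which MAVS activates, changed by -1.27 in HUG1N. The change of TICAM1, the adaptor of the endosomal sensor TLR3, in HUG1N minus that in Caco-2 was -1.18. Of 6 inhibitors of interferon signalling tested, limma called 0 in Caco-2, against 38.7% of all genes. There 1, PTPN11, had an unadjusted p under 0.05. In HUG1N limma called 1 (16.7%), PIAS1, which changed by -0.86, against 48.7% of all genes.

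**Figure D4:**
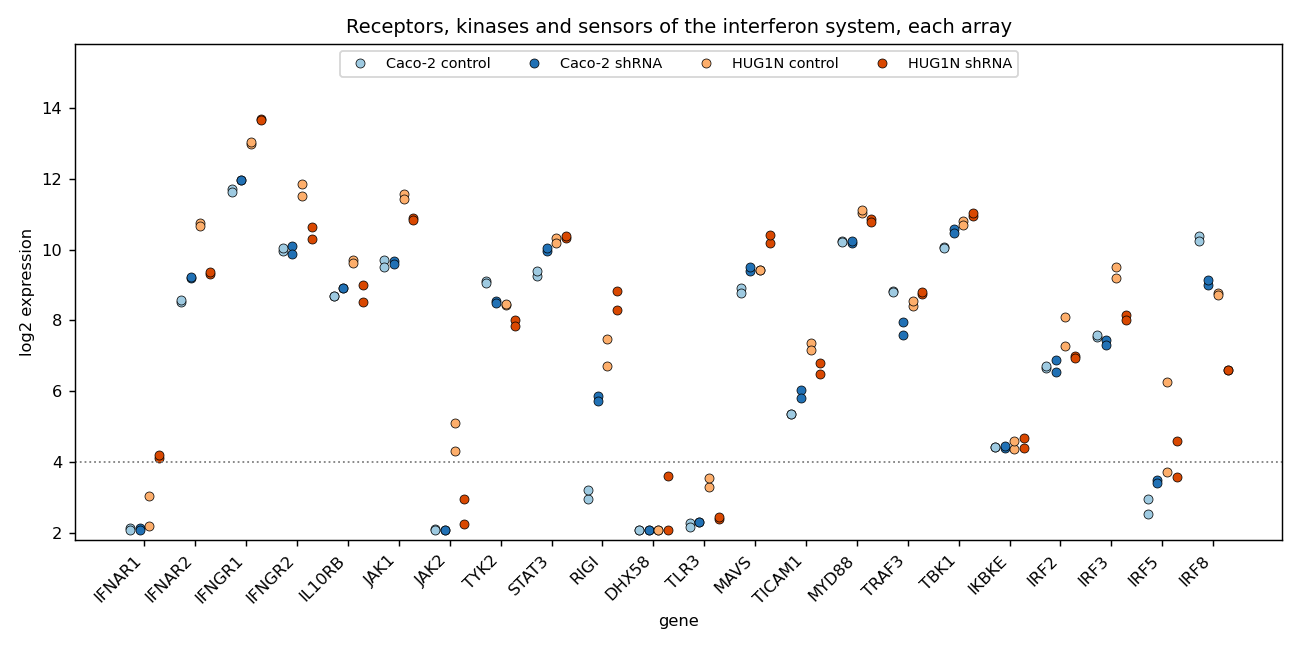
Log2 expression of the 22 receptor, kinase and sensor genes with a probe set on each array, by group, with a dotted line at log2 4. IFNAR2 rises in Caco-2 and falls in HUG1N, and RIGI rises in both lines.

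A further list of interferon-induced genes outside the 45 was counted in the same way. Of 25 tested, 10 rose (40%) and 1 fell (4%) in Caco-2, against 19.5% and 19.2% of all genes. In HUG1N 5 rose (20%) and 13 fell (52%), against 24.7% and 23.9%. In HUG1N control 21 were higher (84%) and 4 lower (16%) than in Caco-2 control, against 37.1% and 41.3%. Of the 25, 15 had an array over 4 in Caco-2. The rest passed the filter only through HUG1N arrays, so for them a higher level in HUG1N control follows in part from the filter. TRIM25 and ETV7 were over 4 only on the HUG1N control arrays, which fixed the direction of their change in HUG1N. In Caco-2, NMI, a partner of STAT proteins, rose by 0.84, LY6E, a membrane protein that limits coronavirus entry, by 1.11, and B2M, the light chain of MHC class I, by 0.55. LAMP3, a lysosomal protein, was called higher between values that are all below 4, at 2.11 and 2.31 against 3.28 and 3.68. In HUG1N, CCL5, a chemokine, rose by 2.62 (limma adjusted p = 5.57e-05), while LAMP3 changed by -3.14, UBE2L6, the conjugating enzyme of ISG15, by -2.17, and the receptor transporter RTP4 by -1.93. UBE2L6 was at 9.58 and 9.39 in HUG1N control and 7.32 and 7.33 in shRNA arrays, so that it fell where ISG15 rose. PSMB9, an immunoproteasome subunit, was at 11.10 and 11.16 in HUG1N control and 9.15 and 9.02 in shRNA arrays (-2.04, adjusted p = 2.38e-04), and below 4 on all Caco-2 arrays.

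Some of these values carry limits of the array. IFITM2, IFITM3, GBP1 and SP110 are read by probe sets whose names end in x_at, a design that can pick up relatives, and the IFITM genes are near-identical in part of their sequence, so their values are uncertain as to the gene. Of 14 genes with several probe sets, 10 had another over the filter. None of those was called the other way in Caco-2, and 1, of SP100, was in HUG1N.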

How the data were processed

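The deposited values are log2 expression of each probe set on each array. Per the submitters' processing notes the authors used GCRMA, a method that subtracts background by probe sequence, aligns array distributions and combines probes. Its version is not given in the sources used here. The 8 arrays had the same lowest value, 2.08. Of 22277 probe sets, 19070 had 1 symbol, 1043 several and 2164 none in the platform table, and 19058 of the first matched a GRCh38.p14 gene table used for current symbols. The genes and lists were chosen with earlier results of these data known.

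Group means were fitted with limma 3.58.1 in R 4.3.3 (lmFit, eBayes, 4 residual degrees of freedom) over all genes above log2 4 in at least 2 arrays, with Benjamini-Hochberg adjustment over the 7696 genes, and a gene was called at an adjusted p under 0.05. The script was tested on simulated data. Where no array of a group was over 4, a change is given as the brighter mean against 4, with no allowance for its spread. Precision is limited by the number of arrays.

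Each of the 44 genes with a single-symbol probe set was named. Those called with at least 1 log2 unit within a line, or in the difference between lines, have each array or their range printed, others their changes. Of the other lists, up to 4 called genes with the smallest p were named per comparison. Alternatives covered the filter, scaling, probe sets, a floor, the variance model, each line alone, a replicate block and each array left out. Replicate numbers were not taken to pair the arrays. Same-numbered deviations correlated at 0.07 in Caco-2 and -0.02 in HUG1N, which does not settle whether a pairing existed. Promoter windows came from a RefSeq table on GRCh38.p14.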

Additional observations from a re-analysis of the deposited data

Results flagged for a closer look

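For 18 genes with an array over log2 4 in both lines, the change with the shRNA differed between the lines by the interaction test in limma (adjusted p under 0.05). Values are the change in HUG1N minus that in Caco-2, in log2 units. Rises in Caco-2 without a like rise in HUG1N gave -4.37 for IFIT1, -4.08 for DDX60, -2.84 for HERC5, -2.71 for GBP2, -1.31 for ISG15 and -0.64 for IFIT3. Of these, IFIT1, ISG15 and IFIT3 also rose in HUG1N, by less. The Caco-2 control arrays of IFIT1 and DDX60 lay below log2 4, and with values below 4 set to 4 these genes gave -3.43 and -2.48, which puts DDX60 behind HERC5 (-2.84) and GBP2 (-2.68).

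Genes that rose in Caco-2 and fell in HUG1N gave -2.35 for IRF9, -2.01 for IRF1, -1.57 for SP100 and -0.91 for IFI6. The value of SP100 rests on its brightest probe set. Genes called lower in HUG1N alone gave -1.70 for BST2, -0.75 for OAS3, -0.61 for PLSCR1, -0.52 for IFITM3 and -0.39 for ADAR. EIF2AK2, called lower in both lines by its brightest probe set, gave -0.39 (adjusted p = 0.0432), a call lost under 11 of 16 alternatives. With the mean of its probe sets it gave -0.08 (adjusted p = 0.544).

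In the other direction CXCL10 gave 3.37, from a fall in Caco-2, and IFITM1 gave 1.12, from a deeper fall in Caco-2 that ended below log2 4, or 0.72 with values below 4 set to 4.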

How the results depend on the processing

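The numbers of genes called kept within 1.5 times their value under every alternative for the control lines, with 25 to 31 higher and 2 to 3 lower in HUG1N. A minimum of 1 log2 unit lowered the Caco-2 rises from 13 to 8, the HUG1N rises from 6 to 3, the HUG1N falls from 17 to 6 and the lower differences from 19 to 12. With no filter 11 genes fell in HUG1N. The mean of a gene's probe sets gave 5 falls in Caco-2 in place of 3, 5 higher differences in place of 3, and a change of 0.28 (limma adjusted p = 0.0117) for SP100 in HUG1N, the reverse of -0.30. Trend and robust moderation also gave 5 higher differences, and each line alone gave 6 falls in Caco-2.

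Leaving out each array gave 11 to 14 rises and 2 to 5 falls in Caco-2, 4 to 7 rises and 11 to 17 falls in HUG1N, and 3 to 5 higher and 15 to 19 lower differences. The 5 falls in Caco-2 came without any 1 of the 4 HUG1N arrays, the 5 higher differences without HUG1N control 1 or 2, and the 11 falls in HUG1N without HUG1N control 2. Calls kept under every alternative that tested the gene were 13 of 16 in Caco-2, 14 of 23 in HUG1N, 17 of 22 for the difference and 30 of 33 for the controls.

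With the replicate block, SP110 (adjusted p = 0.0612) and TRIM21 (0.0513) lost their Caco-2 calls, leaving 11 rises there, EIF2AK2 lost its difference (0.0686), and OAS1 in HUG1N was gained (0.0350). The labels give replicate numbers and state no pairing, so the block is not taken as a pairing. Background correction was not varied, since scanner files were not used here. The causes of these changes were not tested.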
